A study of Mus musculus with 22 samples.

Results

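The hearts of 8 stressed mice were compared with the hearts of 3 unstressed mice to ask which changes of chronic stress appear over both the untreated and the JWH133-treated mice. The stressed hearts are the 4 of the case group, from mice exposed to psychological stress alone, and the 4 of the treatment group, from mice exposed to the same stress and given JWH133, and the 3 hearts of the control group are the reference. These 11 paired-end libraries are 11 of the 22 samples of the series, and the other 11, labelled single, were not analysed here. All were male mice, 6 weeks old at the start. The stress lasted 21 days and mixed social defeat, physical restraint, forced swimming, electric shock, cage tilt, a soiled cage, shortage of water or food, nights with the light on and a dark place, while the control mice had free food and water and 12 h of light and 12 h of dark. JWH133, an agonist of the cannabinoid receptor CB2R, was injected into the peritoneum at 10 mg/kg, 2 injections a day, for the whole time (3 weeks in the sample labels). The sources used here give no vehicle for the case and control groups, no strain and no hour at which hearts were taken. The mean of the case and treatment groups, each with equal weight, was set against the control group in 1 model, and all genes were kept whatever their change.

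Chronic stress keeps the sympathetic nerves and the adrenal glands active, and their hormones act on the heart and on the bone marrow, which releases neutrophils and other myeloid cells. Most cells of an adult heart do not divide. The small amount of RNA for mitosis and DNA replication comes mainly from endothelial cells, fibroblasts and immune cells, and it is high during postnatal growth. Many promoters of mitotic genes carry the CHR element and CCAAT boxes, through which the DREAM and MuvB complexes and NF-Y act, while genes of DNA replication carry E2F sites. Complement is a cascade of plasma proteins that marks cells and microbes for removal, and acute phase proteins are those that cells make in quantity during inflammation.

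Each library held 29410822 to 34412849 counts over genes, and 14050 genes had enough of them to be tested. Levels below are FPKM (fragments per kilobase of gene length, scaled to library size), with the libraries of a group in the order a to d (a to c in the control group). Markers of the heart were high, and Myh6, the heavy chain of myosin in adult cardiomyocytes, was at 3453 to 3857 FPKM in case hearts, 3640.0 to 4082 FPKM in treatment hearts and 3663 to 4037 FPKM in control hearts. On the second principal component of log2 CPM (counts scaled to library size), which held 16.2% of the variance, the control libraries lay at 27.5 to 28.5 and the 8 stressed libraries at -20.2 to 16.5. The first component, with 42.7%, set case libraries a, b and c (29.7 to 64.6) apart from case library d (-9.8), the treatment libraries (-22.7 to -9.9) and the control libraries (-27.7 to -23.3). Case library d stood apart from its group, and the counts of called genes in the lists below without it are given where they differ by over 1.5 times. The p-values measure the spread between these hearts, taken as a single spread for each gene over all groups, which were not equally spread. Chi-square per degree of freedom between pairs of libraries of a group was 33.65 to 144.3 in case hearts. It was 19.76 to 39.22 in treatment hearts and 7.728 to 15.34 in control hearts.

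Of the 14050 genes tested, 629 (4.48%) passed an adjusted p under 0.05 (edgeR's quasi-likelihood test, Benjamini-Hochberg adjustment), and 212 of them rose (1.51%) while 417 fell (2.97%). Rose and fell are used below for these calls, and fold changes are those of the stressed mean over control on the log2 scale, given with the SE. The shares over all genes are the background for the counts of each list below. Where few genes of a list passed, they stand as single genes and say nothing about the list. At the thresholds of the study, a log2 fold change beyond 1 in size at an unadjusted p under 0.05, 534 genes (3.80%) were DE-mRNAs, 256 higher and 278 lower. In 457 genes (3.25%) all 8 stressed libraries lay above all 3 control libraries, and in 709 (5.05%) all lay below. The groups did not overlap in 541 of the 629 genes that passed, 175 that rose and 366 that fell. The 12 genes with the largest shared change in each direction, named below, were chosen among these 541. That their stressed libraries do not overlap control follows from this choice and is no finding about them. The number of calls depended on single libraries. It was 195, 216 and 214 with control library a, b or c left out and 2222 with case library d left out, and all 629 genes were among the 2222. Of 98 called genes given below with their values, 40 kept their call whichever library was left out. For the others the libraries whose loss took the adjusted p to 0.05 or more are given, and no change of direction occurred in any of these fits.

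The case and treatment groups share the 3 control libraries, so their changes are given side by side. None of the 629 genes had opposite signs in them, and 214 changed by more than 1 on the log2 scale in both, 63 upwards and 151 downwards. The 629 were called on the mean of both groups against the same controls, so agreement in sign follows largely from that choice. It is no independent evidence that a change is shared. The difference between the treatment and case groups passed an adjusted p under 0.05 in 200 of the 629 (31.8%), against 10.9% of all genes tested. It uses the level of no control library, but its spread is estimated over all 11 libraries, as for the 629 calls. The excess over all genes is therefore not independent of the choice of the 629. Of the 212 genes that rose, 97 (45.8%) differed, 92 with the treatment group below the case group. Of the 417 that fell, 103 (24.7%) differed, 101 with the treatment group above the case group. In these 92 and 101 genes the treatment group lay between the case and control groups. Without case library d, 1483 of the 2222 genes differed between treatment and case.

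**Figure D1:**
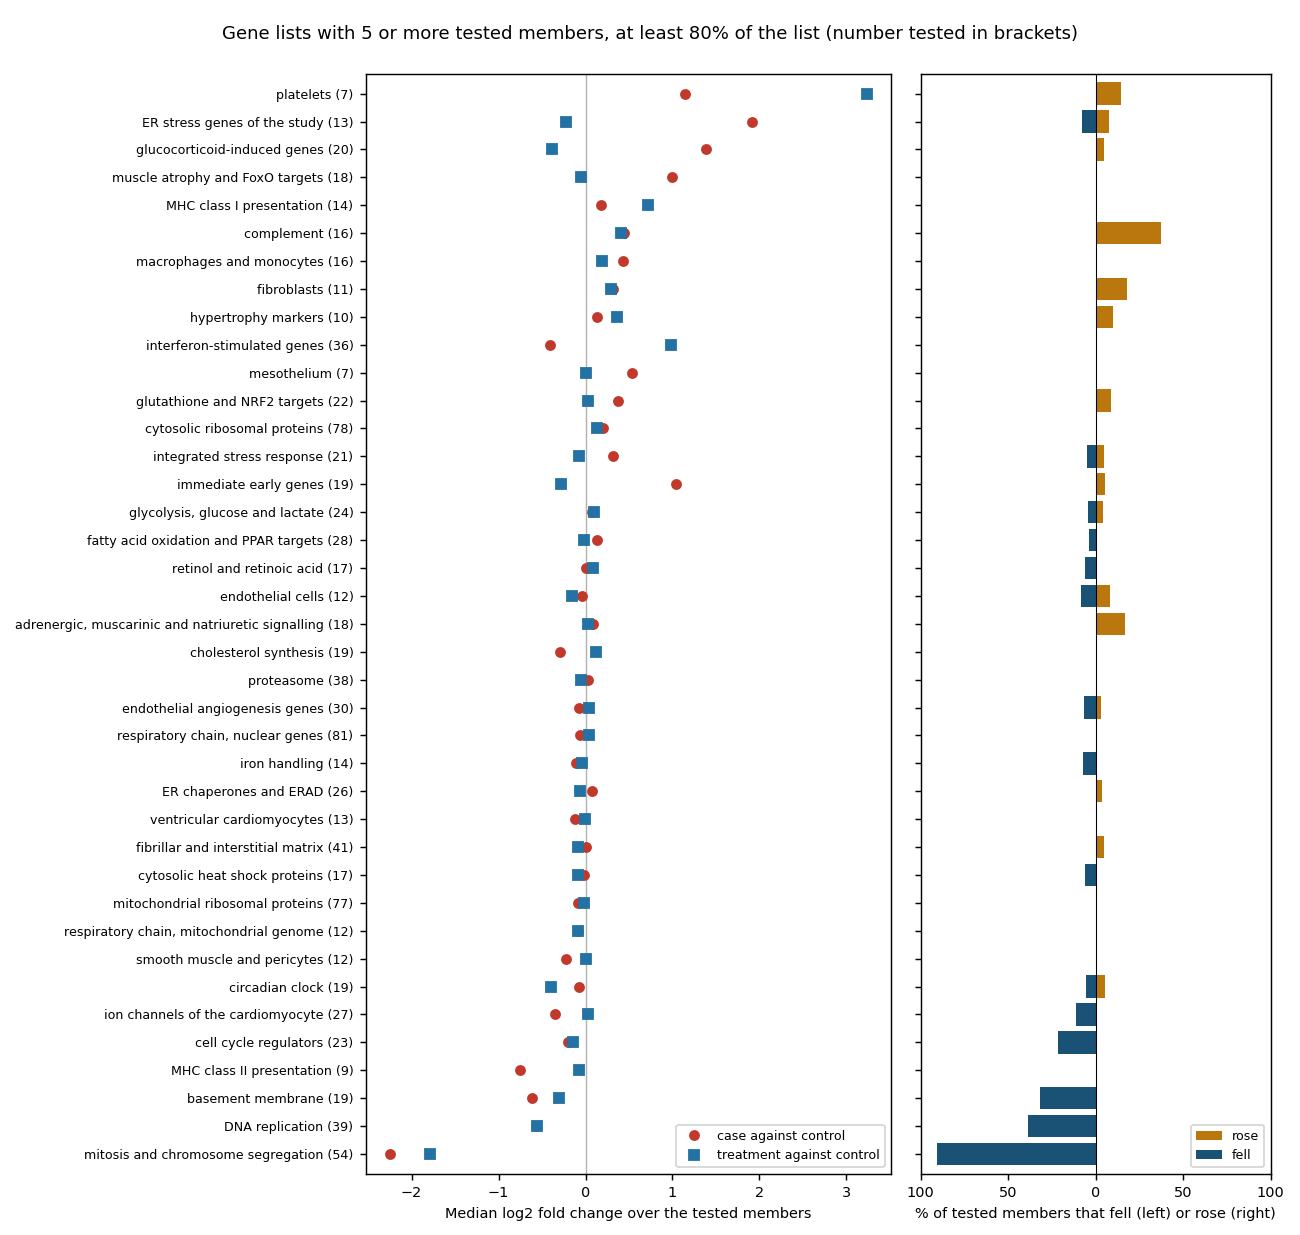
Gene lists with 5 or more tested members that make up at least 80% of the list, ordered by the median log2 fold change of the stressed mean. The left panel gives the median log2 fold change over tested members in the case group (circles) and the treatment group (squares) against control, and the right panel gives the percent of tested members that fell or rose in the stressed mean. Mitosis has the lowest medians, -2.25 and -1.79, with 90.7% of its members lower.

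Genes of mitosis had the largest share of lower members among lists with 5 or more tested. Of 54 genes of mitosis and chromosome segregation, all tested, 49 fell (90.7%, against 2.97% of all genes), none rose and 5 did not pass. The median was -2.0 in the stressed mean, -2.25 in the case group and -1.79 in the treatment group, where the median of all genes was 0.01 in each. In 49 of the 54 all 8 stressed libraries lay below the control libraries, as in 5.05% of all genes tested. Between 46 and 51 fell without any single stressed library, and 35 did with any 1 control library left out. In bulk hearts, fewer dividing cells and less of this RNA per cell cannot be told apart.

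The genes of this paragraph, with Plk1 and Cdc20, were chosen for their textbook roles after their values were seen. Mki67, a protein that coats chromosomes in dividing cells, was at 0.943, 0.812, 0.635 and 0.959 FPKM in case hearts, 0.726, 0.892, 0.626 and 1.103 FPKM in treatment hearts and 3.89, 4.05 and 3.95 FPKM in control hearts. All 8 stressed libraries were below every control library, and the case and treatment groups overlapped. Mki67 fell (log2 fold change -2.25 ± 0.15 (SE), adjusted p = 4.08e-05), a fold of 4.75, with -2.23 in the case group and -2.26 in the treatment group. Top2a, the topoisomerase that untangles sister chromosomes, was at 0.283, 0.248, 0.205 and 0.543 FPKM in case hearts, 0.3801, 0.589, 0.229 and 0.619 FPKM in treatment hearts and 2.297, 2.06 and 1.85 FPKM in control hearts. The highest stressed library was again below the lowest control library (log2 fold change -2.45 ± 0.27 (SE), adjusted p = 0.000598). Cdk1, the kinase that starts mitosis, was at 0.0885 to 0.2203 FPKM in case hearts, 0.179 to 0.252 FPKM in treatment hearts and 0.701 to 0.896 FPKM in control hearts and fell by 2.12 on the log2 scale (adjusted p = 0.000586). The cyclin that partners it, Ccnb2, was at 0.176 to 0.329 FPKM in case hearts, 0.2197 to 0.555 FPKM in treatment hearts and 1.201 to 1.96 FPKM in control hearts (log2 fold change -2.33 ± 0.30 (SE), adjusted p = 0.00125). Prc1, which bundles microtubules between the separating chromosomes, was at 0.256, 0.141, 0.127 and 0.277 FPKM in case hearts, 0.232, 0.252, 0.211 and 0.221 FPKM in treatment hearts and 1.04, 1.083 and 1.14 FPKM in control hearts. Every stressed library held at most 0.277 FPKM and every control library at least 1.04 FPKM (log2 fold change -2.35 ± 0.20 (SE), adjusted p = 0.00015).

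The kinase Plk1 (log2 fold change -1.59 ± 0.27 (SE), adjusted p = 0.00711) and Cdc20, which switches on the anaphase-promoting complex (log2 fold change -1.45 ± 0.28 (SE), adjusted p = 0.0138), fell by less than these. Among the 12 genes with the largest decrease shared by both stressed groups, 5 were spindle or chromosome genes of this list: Ska1, which holds microtubules at kinetochores, and the kinesins Kif15, Kif18b and Kif22, with Hmmr, which binds spindle microtubules. Ska1 was at 0.0111, 0, 0.0126 and 0.0382 FPKM in case hearts, 0.0121, 0, 0.0369 and 0.0882 FPKM in treatment hearts and 0.272, 0.215 and 0.2803 FPKM in control hearts. Case library b and treatment library b had no read of it, and it fell (log2 fold change -3.42 ± 0.62 (SE), adjusted p = 0.00874). Kif15 (-2.71, adjusted p = 0.000399), Kif18b (-2.69, adjusted p = 0.00196), Kif22 (-2.83, adjusted p = 0.000329) and Hmmr (-2.61, adjusted p = 0.00147) fell too, the first value being the log2 fold change. Also among the 12, outside the list, were the spindle protein Troap (-3.08, adjusted p = 0.00286), Kntc1 of the kinetochore checkpoint (-2.94, adjusted p = 0.000865) and Pimreg, a regulator of the metaphase to anaphase step (-3.17, adjusted p = 0.000797). None of these 8 differed between treatment and case at an adjusted p under 0.05. The 5 members of the list that did not pass were Cenpa, Cenpf, Pttg1, Spc24 and Ube2c, of which Cenpa builds the centromere and Pttg1 holds separase back. Plk1 lost its call with control a left out (adjusted p = 0.0839). Cdc20 lost its call with any 1 control left out (adjusted p = 0.0692 to 0.076). Ska1 lost its call with control a or c left out (adjusted p = 0.0553 to 0.0555). Ska1, Troap, Kif18b and Pimreg passed the filter on reads only through the control libraries, where they are high. Kif18b had 43 to 58 reads in control, 1 to 11 in case and 8 to 10 in treatment libraries. Pimreg had 51 to 91 reads in control, 1 to 8 in case and 7 to 19 in treatment libraries. Ska1 had 17 to 24 reads in control, 0 to 3 in case and 0 to 7 in treatment libraries. Troap had 25 to 40 reads in control, 1 to 7 in case and 3 to 6 in treatment libraries.

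**Figure D2:**
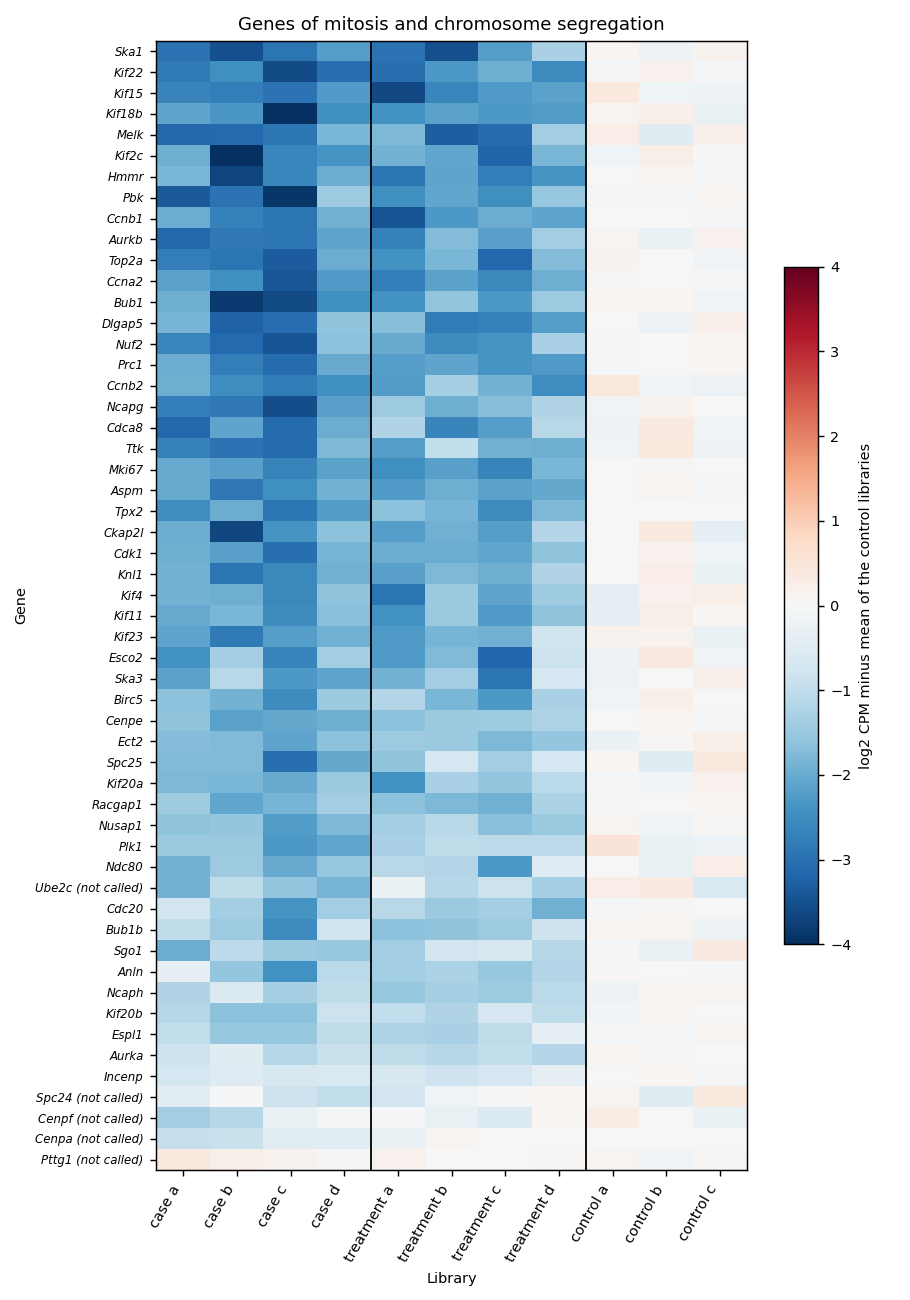
The 54 mitosis genes in each library, as log2 CPM minus the mean of the 3 control libraries, with the largest decrease at the top and the colour scale ending at -4 and 4. Case and treatment libraries lie below 0 in 423 of 432 values, down to -4.80, while control libraries lie from -0.62 to 0.51; the 5 genes marked as not called did not pass.

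Because these genes moved together, their promoters were read for the letters of the cell cycle element known as CHR (TTTGAA) and of the CCAAT box. A promoter of 250 bases before and 50 after the start was found in RefSeq (GRCm38.p6) for 44 of the 54 genes. TTTGAA on either strand stood in 34 of the 44 (77.3%), against 12.1% of the promoters of 11084 tested genes, and CCAAT in 31 (70.5%), against 38.5%. In promoters of the DNA replication genes TTTGAA stood in 5 of 32 (15.6%), and GGCGGGAA, letters of an E2F site, in 7 (21.9%, against 4.15% of all), while 0 of the 44 mitosis promoters held it. A match is a run of letters and was not tested as a binding site. The 4 promoters below are shown because these genes are described above and hold both motifs. Each runs from 200 bases before to 30 after the start, on the strand of the gene, with TTTGAA and CCAAT, or ATTGG, its reverse complement, in capitals. They lie at chr7:80294251-80294480 (Prc1, plus strand), chr7:135716350-135716579 (Mki67, minus strand), chr4:118437314-118437543 (Cdc20, minus strand) and chr9:70421525-70421754 (Ccnb2, minus strand) of GRCm38.p6.
Prc1: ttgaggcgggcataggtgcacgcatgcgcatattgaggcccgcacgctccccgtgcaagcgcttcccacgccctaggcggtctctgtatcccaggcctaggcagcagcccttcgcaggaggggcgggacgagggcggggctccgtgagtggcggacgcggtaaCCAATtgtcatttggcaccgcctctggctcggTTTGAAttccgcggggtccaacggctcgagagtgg
Mki67: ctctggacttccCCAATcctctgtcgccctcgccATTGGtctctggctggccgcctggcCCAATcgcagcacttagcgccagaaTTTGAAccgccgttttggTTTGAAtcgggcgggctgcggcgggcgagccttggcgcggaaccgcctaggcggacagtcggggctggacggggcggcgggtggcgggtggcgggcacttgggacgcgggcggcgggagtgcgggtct
Cdc20: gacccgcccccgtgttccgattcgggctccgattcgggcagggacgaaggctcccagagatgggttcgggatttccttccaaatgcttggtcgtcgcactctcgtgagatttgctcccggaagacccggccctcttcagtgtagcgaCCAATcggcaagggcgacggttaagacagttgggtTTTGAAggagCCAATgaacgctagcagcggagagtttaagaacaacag
Ccnb2: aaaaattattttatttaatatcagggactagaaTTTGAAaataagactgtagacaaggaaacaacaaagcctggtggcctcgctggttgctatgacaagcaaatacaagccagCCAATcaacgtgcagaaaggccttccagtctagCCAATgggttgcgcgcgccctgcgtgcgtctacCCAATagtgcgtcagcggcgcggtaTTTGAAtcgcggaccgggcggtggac

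Genes that copy DNA fell less evenly. Of 39 such genes 15 fell (38.5%, against 2.97% of all genes) and 24 did not pass, while none rose. The median was -0.52 (-0.57 in the case group, -0.56 in the treatment group). With control a, b or c left out 4, 7 and 5 fell, and with case d left out 21 did. Mcm2, chosen after its values were seen, a subunit of the helicase that opens the double strand, was at 1.24, 1.07, 1.502 and 1.75 FPKM in case hearts, 1.67, 1.41, 1.37 and 1.64 FPKM in treatment hearts and 2.76, 2.75 and 2.82 FPKM in control hearts. The ranges of the case and treatment groups overlapped and both lay below control (log2 fold change -0.94 ± 0.11 (SE), adjusted p = 0.000887). Mcm5, another subunit, was at 0.662 to 1.72 FPKM in case hearts, 0.764 to 1.78 FPKM in treatment hearts and 2.56 to 3.36 FPKM in control hearts (log2 fold change -1.46 ± 0.26 (SE), adjusted p = 0.00739). Uhrf1, which keeps DNA methylation on new strands, was at 0.445, 0.839, 0.947 and 0.702 FPKM in case hearts, 0.668, 0.511, 0.485 and 1.03 FPKM in treatment hearts and 2.59, 2.34 and 2.55 FPKM in control hearts. It fell by 1.83 on the log2 scale (adjusted p = 0.00119), beside Gins2 of the helicase complex that holds the Mcm subunits (-1.60, adjusted p = 0.0115) and Clspn, which carries the replication checkpoint (-1.77, adjusted p = 0.0235). Of the genes with the largest shared decrease, Pif1 and Dtl work in replication too. The helicase Pif1 was at 0 to 0.02297 FPKM in case hearts, 0 to 0.0295 FPKM in treatment hearts and 0.142 to 0.194 FPKM in control hearts (log2 fold change -3.97 ± 0.61 (SE), adjusted p = 0.00383). Pif1 passed the filter on reads only through control, with 20 to 27 reads there, 0 to 3 in case and 0 to 4 in treatment libraries. Dtl marks the licensing factor Cdt1 for removal (-2.60, adjusted p = 0.00119). Mcm5 and Gins2 lost their calls with control a or c left out (adjusted p = 0.0504 to 0.104). Clspn lost its call with any 1 control left out (adjusted p = 0.0914 to 0.119).

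Replication-dependent histone genes, which supply the protein for new chromatin, numbered 63, of which 22 fell, none rose, 28 did not pass and the others had too few reads for the test. The 22 are 44.0% of the 50 tested, against 2.97% of all genes. H3c3 was at 0.894, 2.12, 1.17 and 2.21 FPKM in case hearts, 1.796, 2.59, 0.521 and 2.08 FPKM in treatment hearts and 11.8, 8.04 and 11.7 FPKM in control hearts. All stressed libraries held at most 2.59 FPKM and all control libraries at least 8.04 FPKM (log2 fold change -2.65 ± 0.34 (SE), adjusted p = 0.00137). H3c1 (-2.49, adjusted p = 0.00595), H2bc12 (-2.66, adjusted p = 0.0211) and H2bc14 (-2.21, adjusted p = 0.0148) fell as well. Because histone genes are so alike that reads can be shared, the copy that fell is uncertain. The summed level of the 50 tested was 921, 637, 288 and 234 CPM in case hearts, 243 to 286 CPM in treatment hearts and 362 to 430 CPM in control hearts. Case libraries a and b lay above every control library, while case libraries c and d and all treatment libraries lay below. With control a, b or c left out 11, 14 and 10 fell. H2bc12 and H2bc14 lost their calls with any 1 control left out (adjusted p = 0.0668 to 0.133).

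Of 23 tested regulators of the cell cycle, 5 fell (21.7%, against 2.97% of all genes) and none rose, while 9 fell and 5 rose without case library d. Foxm1, the transcription factor of mitotic genes, was at 0.144, 0.121, 0.134 and 0.313 FPKM in case hearts, 0.135, 0.165, 0.148 and 0.286 FPKM in treatment hearts and 1.05, 0.669 and 0.786 FPKM in control hearts. All stressed libraries were below control, with case library d the highest of the case group (log2 fold change -2.22 ± 0.28 (SE), adjusted p = 0.00125). Mybl2, which works with Foxm1 on such genes (-1.85, adjusted p = 0.00725), E2f1, which drives entry into replication (-1.88, adjusted p = 0.00405), and Cdkn1c, an inhibitor of cyclin-dependent kinases, fell. Ccnd1, the cyclin of the G1 phase, was at 13.4, 13.5, 11.01 and 20.7 FPKM in case hearts, 15.5, 16.4, 14.7 and 17.5 FPKM in treatment hearts and 37.8, 33.5 and 33.2 FPKM in control hearts. Its highest stressed library, case d, was below the lowest control library (log2 fold change -1.19 ± 0.13 (SE), adjusted p = 0.000586). Mybl2 lost its call with control c left out (adjusted p = 0.0527).

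**Figure D3:**
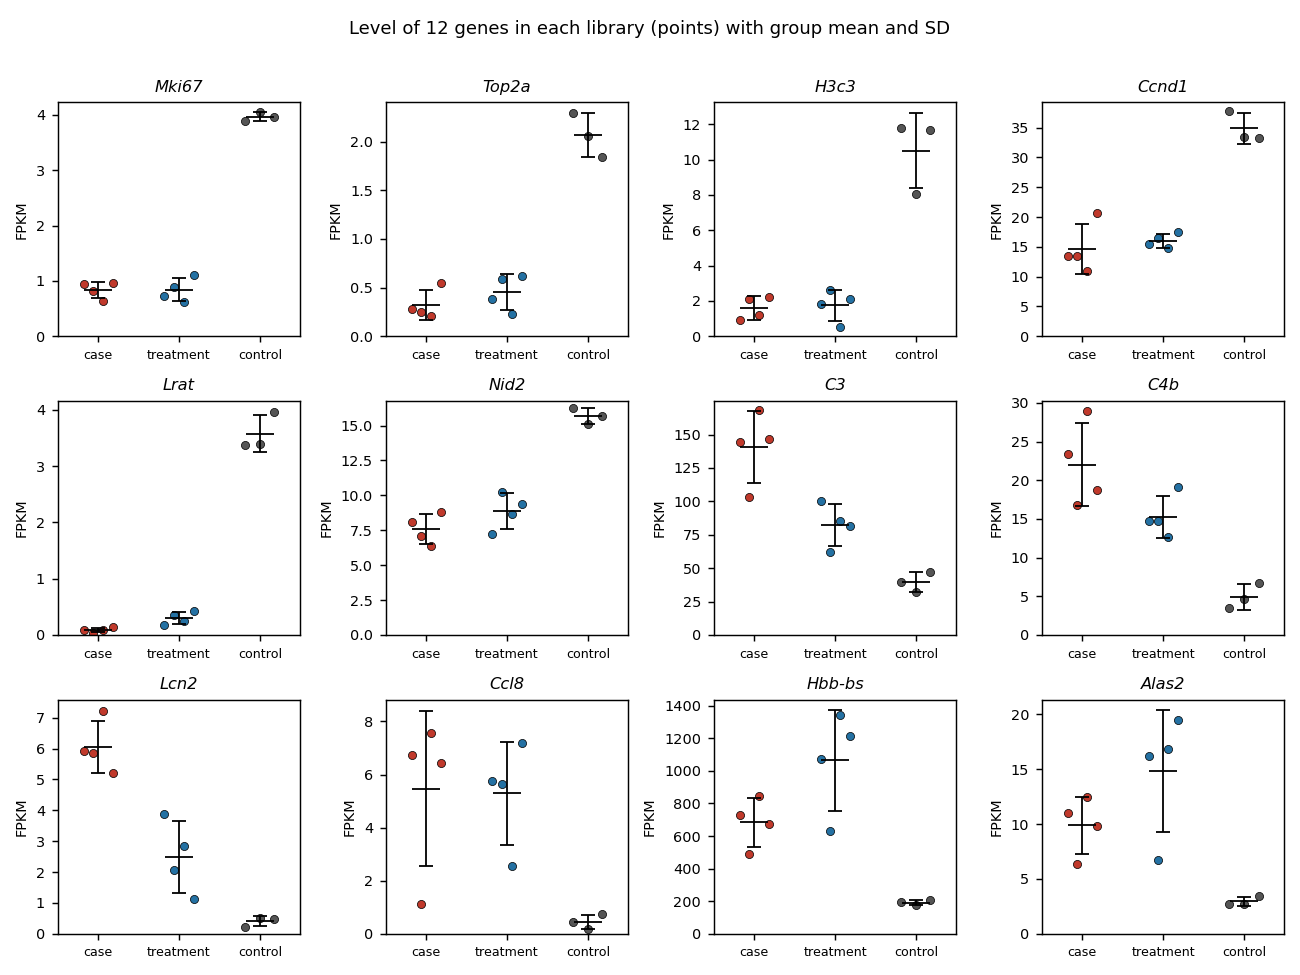
FPKM of 12 genes in each library (points), with the group mean and SD (bars), for the case, treatment and control groups. For Mki67, Top2a, H3c3, Ccnd1, Lrat and Nid2 all 8 stressed libraries lie below the 3 control libraries, and for C3, C4b, Lcn2, Ccl8, Hbb-bs and Alas2 all lie above.

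Of the 12 genes with the largest shared decrease, the largest fold was that of Lrat, which turns retinol into its storage ester. Lrat was at 0.0831, 0.0326, 0.0942 and 0.133 FPKM in case hearts, 0.181, 0.349, 0.245 and 0.427 FPKM in treatment hearts and 3.38, 3.400 and 3.96 FPKM in control hearts. The highest stressed library held 0.427 FPKM and the lowest control library 3.38 FPKM (log2 fold change -4.49 ± 0.24 (SE), adjusted p = 5.89e-06). The treatment group lay above the case group (difference 1.80 ± 0.33 (SE), adjusted p = 0.0121). Of the 17 tested genes of retinol and retinoic acid no other passed, and their median was 0.05, while 2 rose and 2 fell without case library d.

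Genes of the basement membrane, the sheet of collagen IV, laminin and nidogen under endothelial cells and around cardiomyocytes, were lower in part. Of 19 tested, 6 fell (31.6%, against 2.97% of all genes), none rose and 13 did not pass. The median was -0.45 (-0.62 in the case group, -0.31 in the treatment group). With control a, b or c left out 3, 2 and 3 fell, and 12 did with case d left out. Nid2, which links laminin to collagen IV, was at 8.06, 7.11, 6.34 and 8.83 FPKM in case hearts, 7.196, 10.2, 8.68 and 9.37 FPKM in treatment hearts and 16.2, 15.1 and 15.7 FPKM in control hearts. No stressed library reached the control range (log2 fold change -0.94 ± 0.11 (SE), adjusted p = 0.000675). Of the collagen IV chains, Col4a2 was at 58.5 to 85.3 FPKM in case hearts, 54.3 to 101 FPKM in treatment hearts and 117 to 120.0 FPKM in control hearts (log2 fold change -0.65 ± 0.16 (SE), adjusted p = 0.044). Col4a3 (-1.30, adjusted p = 0.00725) and Col4a4 (-1.02, adjusted p = 0.00776) fell too, as did Col4a5 and the heparan sulfate proteoglycan Hspg2. Of 41 genes of the fibrillar and interstitial matrix 2 rose (4.88%, against 1.51% of all genes), none fell, and the median was -0.02. Without case library d 11 fell and 2 rose, and none passed with any 1 control left out. Lox, which crosslinks collagen, was at 7.14 to 33.6 FPKM in case hearts, 1.65 to 6.93 FPKM in treatment hearts and 1.704 to 1.94 FPKM in control hearts (log2 fold change 2.18 ± 0.51 (SE), adjusted p = 0.033). The proteoglycan Dcn was at 101 to 145 FPKM in case hearts, 79.2 to 94.3 FPKM in treatment hearts and 75.6 to 81.2 FPKM in control hearts (log2 fold change 0.41 ± 0.090 (SE), adjusted p = 0.023), and in both the treatment group lay below the case group (adjusted p = 0.0181 and 0.0107). Col4a2, Lox and Dcn lost their calls with any 1 control left out. Col4a2 did so without case a or c or treatment a, c or d as well. Lox and Dcn did so without treatment c as well (adjusted p = 0.0505 to 0.17 over these fits). Col4a4 lost its call with control b left out (adjusted p = 0.0582).

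Of 30 endothelial genes of angiogenesis, 2 fell and 1 rose, while 6 fell and 3 rose without case library d. With control a, b or c left out 1, 0 and 1 fell and none rose. Apln, a peptide of endothelial tip cells, was at 0.6402, 1.19, 1.55 and 4.19 FPKM in case hearts, 5.501, 6.29, 5.26 and 4.496 FPKM in treatment hearts and 9.68, 8.96 and 8.64 FPKM in control hearts. The case group was lowest, the treatment group lay between and no stressed library reached control (log2 fold change -1.54 ± 0.34 (SE), adjusted p = 0.0239, treatment against case 1.53 ± 0.39 (SE), adjusted p = 0.0325). Nrp2, a receptor of VEGF and semaphorins, was at 4.33 to 8.95 FPKM in case hearts, 6.49 to 9.81 FPKM in treatment hearts and 13.3 to 14.2 FPKM in control hearts (log2 fold change -1.03 ± 0.18 (SE), adjusted p = 0.00776). Hey2, a target of Notch, rose (log2 fold change 0.64 ± 0.16 (SE), adjusted p = 0.044). Among 12 endothelial markers Cd93 fell (log2 fold change -0.73 ± 0.10 (SE), adjusted p = 0.00252) and Vwf, which binds platelets, rose (log2 fold change 0.58 ± 0.10 (SE), adjusted p = 0.00711), with a median of 0.01, and 2 fell and 2 rose without case library d. The summed level of these markers was 1690 to 2170 CPM in case hearts, 1630 to 1800 CPM in treatment hearts and 1860 to 1910 CPM in control hearts. Apln and Hey2 lost their calls with any 1 control left out. Apln did so without treatment c as well. Hey2 did so without case a or treatment a, b, c or d as well (adjusted p = 0.0508 to 0.217 over these fits). Nrp2 lost its call with control b left out (adjusted p = 0.0527). Vwf lost its call with control a or b left out (adjusted p = 0.0552 to 0.0602).

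Few cardiomyocyte genes passed. None of 13 ventricular markers did (median -0.02), and none of 81 nuclear and 12 mitochondrial genes of the respiratory chain, 77 mitochondrial and 78 cytosolic ribosomal protein genes or 38 proteasome genes did with edgeR. At an unadjusted p under 0.05 there were 2, 1, 1, 6, 18 and 2 in the same order, DESeq2 called 0, 0, 1, 1, 3 and 0, and edgeR without case library d called 0, 1, 0, 2, 4 and 1. Of 27 ion channel genes 3 fell, none did with any 1 control left out, and 6 fell and 2 rose without case library d. Hcn2, a pacemaker channel, was at 7.72 to 13.3 FPKM in case hearts, 8.86 to 17.7 FPKM in treatment hearts and 17.7 to 22.2 FPKM in control hearts (log2 fold change -0.80 ± 0.19 (SE), adjusted p = 0.0323). Hcn4 (-0.68, adjusted p = 0.037) fell too in the stressed mean, but by -1.19 in the case group and only -0.18 in the treatment group. Its stressed libraries overlapped control, and treatment lay above case (difference 1.01 ± 0.18 (SE), adjusted p = 0.01). Casq1, a calsequestrin that stores calcium, was at 0.729, 0.983, 1.55 and 2.56 FPKM in case hearts, 3.58, 4.897, 4.25 and 5.71 FPKM in treatment hearts and 9.83, 15.9 and 11.6 FPKM in control hearts. The case group was lowest, the treatment group between and the control group highest, with no overlap (log2 fold change -2.29 ± 0.25 (SE), adjusted p = 0.000586, treatment against case 1.67 ± 0.30 (SE), adjusted p = 0.0112). The summed level of 4 skeletal muscle markers was 12.39 to 16.34 CPM in case hearts and 28.86 to 35.61 CPM in control hearts. In treatment hearts this sum was 22.35 to 34.03 CPM, which overlapped control. Whether the change of Casq1 lies in cardiomyocytes was not tested. Myh7, the myosin of the fetal and slow heart, was at 16.2, 6.32, 25.8 and 64.00 FPKM in case hearts, 4.57, 14.4, 9.87 and 4.57 FPKM in treatment hearts and 1.68, 3.39 and 2.33 FPKM in control hearts. All stressed libraries lay above control, with case library d highest (log2 fold change 2.60 ± 0.63 (SE), adjusted p = 0.0382). Of the other 9 markers of hypertrophy none passed, and 1 of the list fell without case library d. Of 18 genes of adrenergic, muscarinic and natriuretic signalling 3 rose, and 0, 1 and 0 did with control a, b or c left out. Grk5, a kinase that desensitizes beta receptors, was at 15.4 to 20.4 FPKM in case hearts, 12.6 to 15.2 FPKM in treatment hearts and 10.03 to 11.8 FPKM in control hearts (log2 fold change 0.53 ± 0.097 (SE), adjusted p = 0.00996). The endothelin receptor Ednra rose too (log2 fold change 0.58 ± 0.12 (SE), adjusted p = 0.0185). Hcn2, Hcn4, Myh7 and Ednra lost their calls with any 1 control left out. Hcn2 did so without treatment d as well. Hcn4 did so without case b or treatment a, b, c or d as well. Myh7 did so without case c or treatment b or c as well (adjusted p = 0.0537 to 0.183 over these fits). Grk5 lost its call with control a or c left out (adjusted p = 0.0711 to 0.0855).

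Part of the complement genes rose in stressed hearts. Of 16 tested, 6 rose (37.5%, against 1.51% of all genes), none fell and 10 did not pass, with a median of 0.41 (0.44 in the case group, 0.41 in the treatment group). Between 5 and 7 rose whichever library was left out. C3, the central component, was at 145, 103, 168 and 146 FPKM in case hearts, 100.3, 61.8, 85.5 and 81.9 FPKM in treatment hearts and 39.6, 32.4 and 47.2 FPKM in control hearts. The groups did not overlap, with case highest, treatment between and control lowest (log2 fold change 1.43 ± 0.17 (SE), adjusted p = 0.000904, treatment against case -0.79 ± 0.17 (SE), adjusted p = 0.0183). C4b, which forms the enzyme that cleaves C3, was at 23.4, 16.9, 28.9 and 18.8 FPKM in case hearts, 14.8, 14.7, 12.6 and 19.1 FPKM in treatment hearts and 3.46, 4.63 and 6.71 FPKM in control hearts. Every stressed library held at least 12.6 FPKM and no control library more than 6.71 FPKM (log2 fold change 1.89 ± 0.23 (SE), adjusted p = 0.000887). Serping1, the inhibitor of C1, rose less (log2 fold change 0.69 ± 0.10 (SE), adjusted p = 0.00324), as did the C1 proteases C1s1 and C1ra. C6, a subunit of the membrane attack complex, was outside the list and among the 12 genes with the largest shared increase. It was at 0.564 to 1.39 FPKM in case hearts, 0.296 to 0.435 FPKM in treatment hearts and 0.0351 to 0.0532 FPKM in control hearts (log2 fold change 3.59 ± 0.41 (SE), adjusted p = 0.000675). The macrophage markers C1qa and C1qb did not pass (0.32 and 0.34), nor did any of 16 macrophage and monocyte markers with edgeR (3 at an unadjusted p under 0.05, 2 by DESeq2). The summed level of these markers was 528 to 873 CPM in case hearts, 455 to 589 CPM in treatment hearts and 464 to 503 CPM in control hearts.

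Of 22 genes of the acute phase and the Serpina3 cluster in the table, 17 had enough reads. Of the 17, 5 rose (29.4%, against 1.51% of all genes) and none fell, and in each of the 5 the treatment group lay below the case group. Of this list 11 rose without case library d, and 3 did with any 1 control left out. Serpina3n, an inhibitor of proteases, was at 132, 127, 134 and 77.6 FPKM in case hearts, 19.9, 15.2, 23.4 and 8.44 FPKM in treatment hearts and 2.94, 3.43 and 4.02 FPKM in control hearts. The 3 groups did not overlap (log2 fold change 3.68 ± 0.33 (SE), adjusted p = 0.000254, treatment against case -2.86 ± 0.29 (SE), adjusted p = 0.00215). The genes of this cluster are similar copies, so part of its reads may come from a neighbour. Lcn2, which withholds iron from bacteria, was at 5.92, 5.85, 7.22 and 5.22 FPKM in case hearts, 3.87, 2.07, 2.84 and 1.12 FPKM in treatment hearts and 0.217, 0.515 and 0.475 FPKM in control hearts. The lowest stressed library, treatment d, was above every control library (log2 fold change 3.26 ± 0.39 (SE), adjusted p = 0.000887). Osmr, the receptor of oncostatin M, was at 7.28 to 12.03 FPKM in case hearts, 5.34 to 6.23 FPKM in treatment hearts and 3.51 to 3.88 FPKM in control hearts (log2 fold change 0.99 ± 0.12 (SE), adjusted p = 0.000929). Socs3, the feedback inhibitor of the signal from such receptors, was at 3.29 to 8.16 FPKM in case hearts, 1.71 to 3.600 FPKM in treatment hearts and 1.05 to 1.21 FPKM in control hearts (log2 fold change 1.70 ± 0.32 (SE), adjusted p = 0.0101). Il1r1, the receptor of interleukin 1, rose too. Socs3 lost its call with any 1 control left out (adjusted p = 0.0559 to 0.0752).

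**Figure D4:**
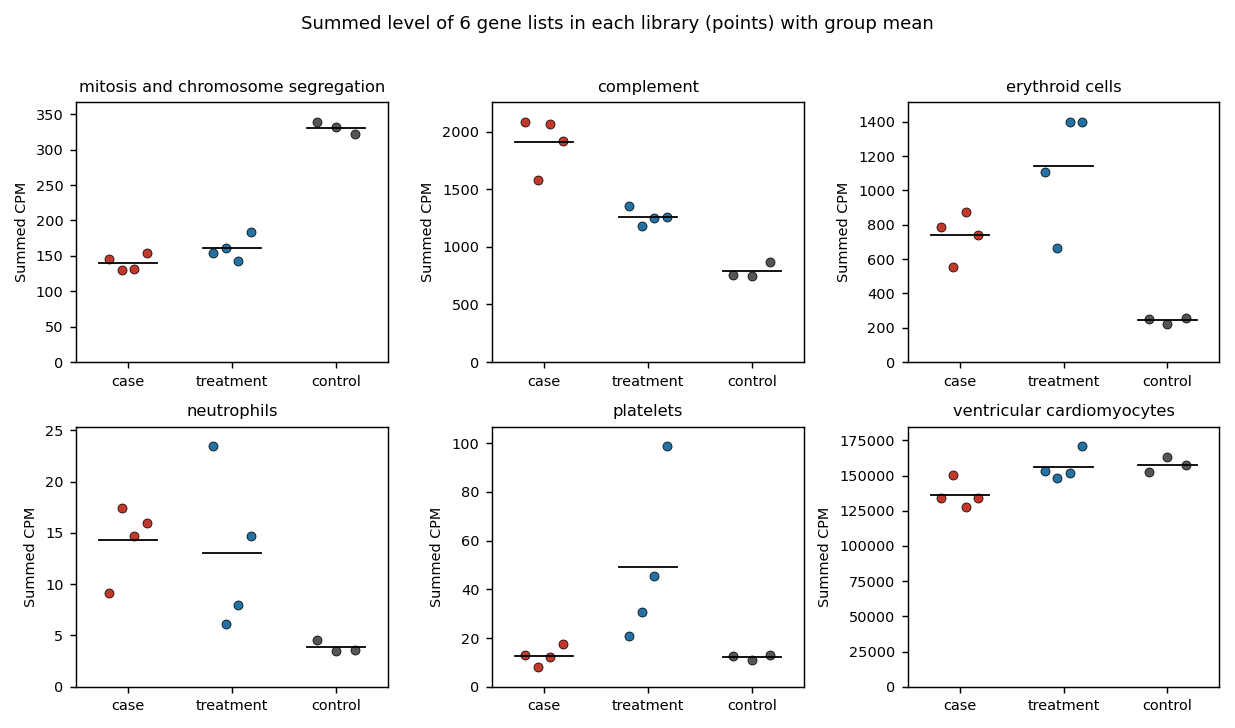
Summed CPM of 6 gene lists in each library (points) with the group mean (line), for the case, treatment and control groups. Mitosis genes sum to 130 to 154, 143 to 184 and 323 to 340 CPM, complement genes to 1580 to 2090, 1180 to 1350 and 747 to 873 CPM, and erythroid markers to 556 to 872, 663 to 1400 and 223 to 257 CPM.

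Markers of red cells were higher in stressed hearts. Of 13 listed erythroid markers with counts, 11 had enough reads for the test, 6 rose and none fell. Their summed level was 556 to 872 CPM in case hearts, 663 to 1400 CPM in treatment hearts and 223 to 257 CPM in control hearts. Hbb-bs, a beta globin, was at 728, 487, 847 and 672 FPKM in case hearts, 1071, 632, 1343 and 1216 FPKM in treatment hearts and 193, 174 and 205 FPKM in control hearts. The lowest stressed library held 487 FPKM and the highest control library 205 FPKM (log2 fold change 2.15 ± 0.23 (SE), adjusted p = 0.00051, a fold of 4.45). Hbb-bt, Hba-a1 and Hba-a2 rose as well, but globin genes share reads. Alas2, which starts heme synthesis in red cell precursors, was at 10.99, 6.34, 12.4 and 9.81 FPKM in case hearts, 16.2, 6.72, 16.8 and 19.5 FPKM in treatment hearts and 2.74, 2.72 and 3.41 FPKM in control hearts. It rose by 2.02 on the log2 scale (adjusted p = 0.00347). With control a, b or c left out 3, 4 and 3 of the erythroid markers rose. Hbb-bt lost its call with any 1 control left out (adjusted p = 0.0745 to 0.0809).

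Of 12 neutrophil markers 7 had enough reads for the test, some only through the stressed libraries, so no share of them is given. The summed level of the 7 was 9.14 to 17.4 CPM in case hearts, 6.14 to 23.4 CPM in treatment hearts and 3.52 to 4.55 CPM in control hearts. Mmp8, the collagenase of neutrophils, had 48, 112, 71 and 31 reads in case libraries a to d, 70, 2, 6 and 13 reads in treatment libraries a to d and 0, 0 and 0 reads in control libraries a to c. With no read in any control library, the level in the 8 stressed libraries was at least 44.3-fold higher, taking 3 reads over the control group as the floor. Mmp8 passed the test (adjusted p = 0.0396). Retnlg, a secreted protein of neutrophils, was at 1.100, 3.77, 2.95 and 1.15 FPKM in case hearts, 3.22, 0.516, 0.553 and 1.76 FPKM in treatment hearts and 0.106, 0.0569 and 0.315 FPKM in control hearts (log2 fold change 3.46 ± 0.85 (SE), adjusted p = 0.0414). S100a8, a main protein of the neutrophil cytosol, was at 2.905, 8.04, 5.66 and 5.24 FPKM in case hearts, 12.9, 0.294, 2.88 and 5.77 FPKM in treatment hearts and 0.318, 0.292 and 0.0449 FPKM in control hearts. Treatment library b held 0.294 FPKM, within the control range, and S100a8 rose (log2 fold change 4.62 ± 1.03 (SE), adjusted p = 0.0264). Chil3, a lectin of myeloid cells, had 381 reads in the stressed and 2 in the control libraries, a ratio of 71.6 with an exact 95% counting interval of 19.7 to 594. Mmp8, Retnlg, S100a8 and Chil3 lost their calls with any 1 control left out. Mmp8 did so without case a, b or c or treatment d as well. Retnlg did so without case b or c or treatment a or d as well. Chil3 did so without case b or treatment a, c or d as well (adjusted p = 0.051 to 0.185 over these fits).

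Of 7 tested platelet markers (of 8) 1 rose, while 4 did without case library d and none with any 1 control left out. The summed level of the 7 was 8.215 to 17.52 CPM in case hearts and 11.04 to 13.2 CPM in control hearts, which overlap. In treatment hearts the sum was 20.67 to 98.67 CPM. At an adjusted p under 0.05, 5 of the 7 were higher in treatment than in case. Itga2b, the platelet integrin, was at 0.527, 0.597, 0.431 and 0.6104 FPKM in case hearts, 0.806, 1.35, 2.002 and 4.902 FPKM in treatment hearts and 0.231, 0.192 and 0.314 FPKM in control hearts. All stressed libraries were above control, and treatment lay above case (log2 fold change 2.16 ± 0.50 (SE), adjusted p = 0.0319, treatment against case 2.04 ± 0.46 (SE), adjusted p = 0.0222). Of 8 B cell markers in the table only Pax5 and Cd79b had enough reads for the test, both at their highest in control hearts. The control libraries may have carried them through the filter on reads, so no share is given. The other markers had too few reads, so Pax5 and Cd79b do not stand for B cells as a whole. Pax5 was at 0.003795 to 0.0134 FPKM in case hearts, 0.0154 to 0.0304 FPKM in treatment hearts and 0.0648 to 0.107 FPKM in control hearts (log2 fold change -2.60 ± 0.37 (SE), adjusted p = 0.00252). Cd79b was at 0.0207 to 0.1899 FPKM in case hearts, 0.238 to 0.429 FPKM in treatment hearts and 0.495 to 0.684 FPKM in control hearts (log2 fold change -1.68 ± 0.41 (SE), adjusted p = 0.0407). None of 7 T and NK cell markers passed with edgeR (1 at an unadjusted p under 0.05, 0 by DESeq2), and none of 6 lung epithelium markers had enough reads. The part of blood left in the hearts, and of cells that entered them, in the complement, acute phase and other results was not tested. Itga2b and Cd79b lost their calls with any 1 control left out. Itga2b did so without treatment c as well. Cd79b did so without case b or treatment b, c or d as well (adjusted p = 0.0524 to 0.188 over these fits).

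Of 33 tested chemokines and receptors, 2 rose (6.06%, against 1.51% of all genes). Without case library d 4 rose and 2 fell, and 0, 1 and 1 rose with control a, b or c left out. Ccl8, which draws monocytes and T cells, was at 6.73, 1.14, 7.56 and 6.45 FPKM in case hearts, 5.76, 5.66, 2.57 and 7.17 FPKM in treatment hearts and 0.432, 0.198 and 0.732 FPKM in control hearts. Case library b was the lowest stressed library and still above control (log2 fold change 3.51 ± 0.63 (SE), adjusted p = 0.00859). Ackr2, a decoy receptor that removes such chemokines, was at 1.74 to 3.22 FPKM in case hearts, 1.14 to 1.699 FPKM in treatment hearts and 0.648 to 1.07 FPKM in control hearts (log2 fold change 1.17 ± 0.25 (SE), adjusted p = 0.0216). The guanylate binding protein Gbp10 was at 0.386 to 8.63 FPKM in case hearts, 0.4403 to 2.695 FPKM in treatment hearts and 0.148 to 0.236 FPKM in control hearts (log2 fold change 3.54 ± 0.89 (SE), adjusted p = 0.0437). Its near copy Gbp6, chosen after its values were seen, was at 2.299 to 19.3 FPKM in case hearts, 2.18 to 5.38 FPKM in treatment hearts and 0.918 to 1.39 FPKM in control hearts (log2 fold change 2.5 ± 0.54 (SE), adjusted p = 0.0211), so which of the 2 rose is uncertain. None of 36 interferon-stimulated genes passed with edgeR (median 0.29, with -0.41 in the case group and 0.98 in the treatment group), and none of the 14 and 9 genes of MHC class I and class II presentation did, with medians of 0.45 and -0.39. Of these 3 lists 1, 4 and 1 genes had an unadjusted p under 0.05, DESeq2 called 1, 1 and 0, and edgeR without case library d called 0, 1 and 0. Of the 36 interferon-stimulated genes 9 were higher in treatment than in case at an adjusted p under 0.05 with edgeR. The 36 summed to 378 to 1090 CPM in case hearts and 739 to 802 CPM in control hearts. In treatment libraries a to d the sum was 771, 2705, 627 and 1668 CPM, above control only in b and d. Apol11b, an apolipoprotein L, was at 0.181, 0.1298, 0.396 and 0.138 FPKM in case hearts, 1.67, 0.193, 0.386 and 0.833 FPKM in treatment hearts and 0.0128, 0.0137 and 0.03797 FPKM in control hearts. It rose (log2 fold change 4.11 ± 0.89 (SE), adjusted p = 0.0223), and the difference of treatment from case did not pass (adjusted p = 0.0683). Ccl8 lost its call with control a or b left out (adjusted p = 0.0633 to 0.0644). Ackr2 lost its call with control a or c left out (adjusted p = 0.122 to 0.14). Gbp10, Gbp6 and Apol11b lost their calls with any 1 control left out. Gbp10 did so without case a or b or treatment a, b or d as well (adjusted p = 0.053 to 0.183 over these fits).

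Of 19 clock genes 1 rose and 1 fell, while 4 rose and 5 fell without case library d. Arntl, the activator at the core of the clock, was at 7.51, 5.35, 2.03 and 0.601 FPKM in case hearts, 2.73, 4.39, 2.04 and 0.756 FPKM in treatment hearts and 0.336, 0.278 and 0.261 FPKM in control hearts. All stressed libraries lay above control, from 0.601 FPKM in case d to 7.51 FPKM in case a, so the spread among stressed hearts was large (log2 fold change 3.42 ± 0.79 (SE), adjusted p = 0.0316). Npas2, Dbp, Per3 and Nr1d1 are given after their values were seen. Npas2, which can stand in for the partner of Arntl, was at 0.6101 to 3.55 FPKM in case hearts, 0.856 to 2.53 FPKM in treatment hearts and 0.634 to 0.989 FPKM in control hearts and did not pass (1.14, adjusted p = 0.261). Ciart, a repressor, was at 4.21, 4.33, 6.46 and 6.91 FPKM in case hearts, 1.49, 0.481, 1.74 and 1.83 FPKM in treatment hearts and 8.85, 9.39 and 10.8 FPKM in control hearts. The 3 groups did not overlap, with treatment lowest (log2 fold change -1.82 ± 0.26 (SE), adjusted p = 0.00252, treatment against case -1.99 ± 0.31 (SE), adjusted p = 0.00649). Dbp, an output gene, was at 2.53, 2.69, 26.2 and 31.9 FPKM in case hearts, 19.6, 11.4, 23.1 and 15.6 FPKM in treatment hearts and 45.4, 41.1 and 42.01 FPKM in control hearts. It was below control in all 8 stressed libraries but did not pass (log2 fold change -1.40 ± 0.57 (SE), adjusted p = 0.19), nor did Per3 (-0.90, adjusted p = 0.28) or Nr1d1 (0.06, adjusted p = 0.948). The schedule of stress held nights with the light on, and their part cannot be told apart from that of the other stressors, or from a difference in the hour at which hearts were taken. Arntl lost its call with any 1 control left out. Arntl did so without treatment a or c as well (adjusted p = 0.0522 to 0.154 over these fits).

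**Figure D5:**
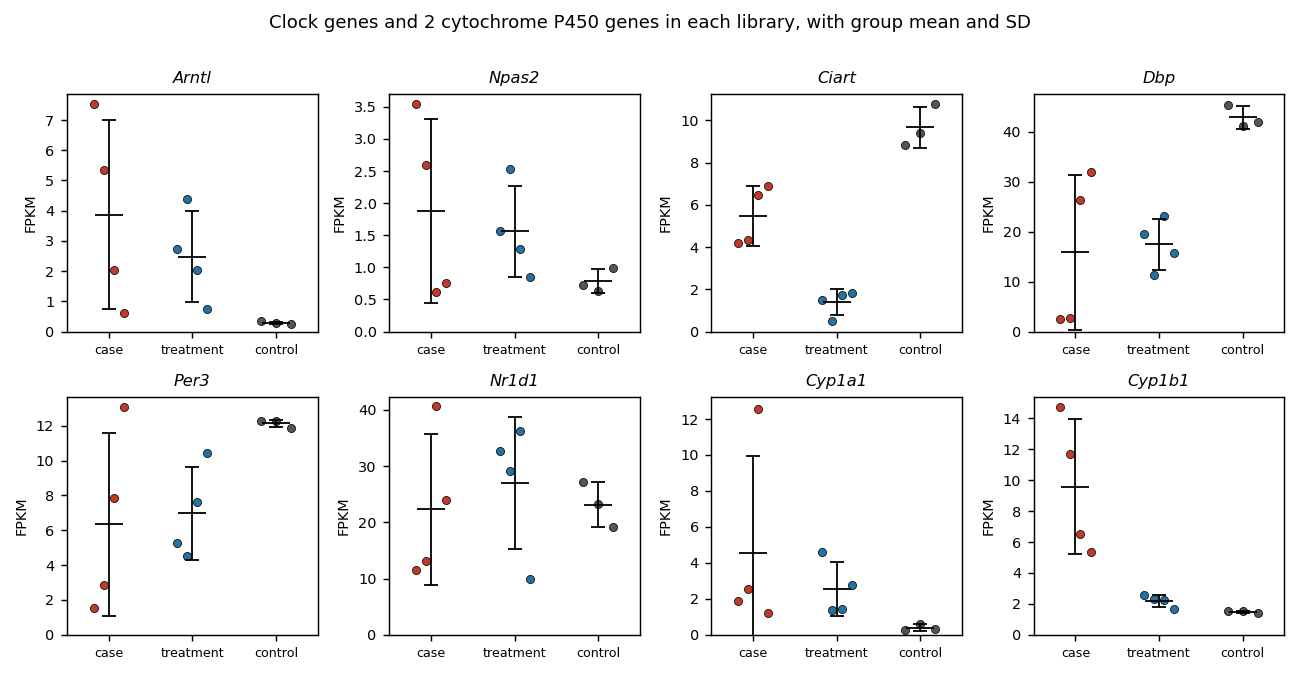
FPKM of 6 clock genes and of the cytochromes Cyp1a1 and Cyp1b1 in each library (points), with the group mean and SD (bars), for the case, treatment and control groups. Arntl, Cyp1a1 and Cyp1b1 lie above control in all 8 stressed libraries, Ciart and Dbp lie below, and Npas2, Per3 and Nr1d1 overlap control.

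Cyp1a1, the oxidase that the aryl hydrocarbon receptor switches on, was among the 12 genes with the largest shared increase. It was at 1.87, 2.52, 12.6 and 1.21 FPKM in case hearts, 4.62, 1.403, 1.41 and 2.75 FPKM in treatment hearts and 0.249, 0.606 and 0.313 FPKM in control hearts. Case library c was far above the rest, and all stressed libraries were above control (log2 fold change 3.12 ± 0.80 (SE), adjusted p = 0.0498). Other known targets of the receptor were looked up after these values were seen. Cyp1b1 was at 14.7, 11.7, 6.54 and 5.39 FPKM in case hearts, 2.55, 2.29, 2.24 and 1.68 FPKM in treatment hearts and 1.52, 1.54 and 1.39 FPKM in control hearts. Every stressed library was above control, and the treatment group lay below the case group (log2 fold change 1.64 ± 0.31 (SE), adjusted p = 0.0119, treatment against case -2.19 ± 0.30 (SE), adjusted p = 0.00516). Ahrr, the repressor of the receptor, rose (log2 fold change 0.79 ± 0.19 (SE), adjusted p = 0.0382), and Tiparp did not pass (0.33, adjusted p = 0.602). Cyp1a1, Cyp1b1 and Ahrr lost their calls with any 1 control left out. Cyp1a1 did so without case b or treatment a, b, c or d as well. Ahrr did so without case a, b or c or treatment a, c or d as well (adjusted p = 0.0526 to 0.211 over these fits).

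Among genes of stress signalling the calls depended on case library d. Of 20 glucocorticoid-induced genes only Lcn2 passed, and the list stood at a median of 1.39 in the case group and -0.38 in the treatment group, with 18 of the 20 lower in treatment than in case at an adjusted p under 0.05. Without case library d 12 of the 20 rose in the stressed mean. Of 19 immediate early genes only Junb rose, and 3 rose without that library. It was at 18.9, 15.9, 17.5 and 11.1 FPKM in case hearts, 5.74, 4.12, 5.26 and 4.78 FPKM in treatment hearts and 4.36, 3.86 and 3.36 FPKM in control hearts. It was high in the case group and near control in the treatment group (log2 fold change 1.20 ± 0.18 (SE), adjusted p = 0.00368, treatment against case -1.71 ± 0.18 (SE), adjusted p = 0.00242), and treatment library b lay within the control range. In the integrated stress response Slc3a2, a subunit of amino acid transporters, rose (log2 fold change 0.56 ± 0.13 (SE), adjusted p = 0.0305) and Stc2, a secreted glycoprotein, fell (log2 fold change -0.52 ± 0.10 (SE), adjusted p = 0.0135), out of 21 genes, of which 4 rose and 3 fell without that library. Slc3a2 changed by 0.98 in the case group and only 0.14 in the treatment group (treatment against case -0.84 ± 0.13 (SE), adjusted p = 0.00651). Of 26 genes of ER chaperones and ERAD only Ern1, the sensor IRE1, rose (log2 fold change 0.47 ± 0.12 (SE), adjusted p = 0.0404), and 4 did without that library. Of 22 glutathione and NRF2 genes 2 rose, against 6 without it. Gpx3, the peroxidase of plasma, was at 104 to 249 FPKM in case hearts, 71.5 to 85.9 FPKM in treatment hearts and 48.01 to 68.6 FPKM in control hearts (log2 fold change 0.99 ± 0.23 (SE), adjusted p = 0.0331). Gstm1 rose too (log2 fold change 0.56 ± 0.12 (SE), adjusted p = 0.0203), both being lower in treatment than in case (adjusted p = 0.0159 and 0.0195). Slc3a2, Stc2, Ern1, Gpx3 and Gstm1 lost their calls with any 1 control left out. Slc3a2 did so without treatment a or c as well. Ern1 did so without case a or treatment b, c or d as well. Gpx3 did so without treatment a, b or c as well (adjusted p = 0.0505 to 0.174 over these fits).

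The study followed 13 genes of ER stress that it chose on these samples for a difference of case from control and of treatment from case, so their direction is no independent evidence here. Of the 13, Serpina3n rose, Casq1 fell and 11 did not pass in the stressed mean, where 4.48% of all genes passed. The log2 fold changes of the 11 were Fos 1.23, Atf3 0.72, Cdkn1a 2.08, Fkbp5 0.85, Gabarapl1 1.19, Herpud1 0.77, Ppp1r15a 0.97, Nox4 0.89, Hp 1.45, Tfrc -1.19 and Nos2 -1.06, with adjusted p from 0.076 to 0.328. Fkbp5, a chaperone that glucocorticoids induce, was at 26.9, 29.01, 18.4 and 7.53 FPKM in case hearts, 4.75, 3.77, 4.07 and 2.82 FPKM in treatment hearts and 3.68, 5.53 and 5.66 FPKM in control hearts. The case libraries were above control and the treatment libraries within or below its range. Without case library d, 6 of the 13 rose and 3 fell.

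In metabolism few genes passed, and more did without case library d. Cpt2, which carries fatty acids into mitochondrial oxidation, fell (log2 fold change -0.33 ± 0.082 (SE), adjusted p = 0.0424) alone of 28 genes of fatty acid oxidation, while 6 rose and 1 fell without that library. Among 24 genes of glycolysis Pgam2 fell (log2 fold change -0.40 ± 0.079 (SE), adjusted p = 0.015) and the lactate transporter Slc16a3 rose (log2 fold change 0.79 ± 0.19 (SE), adjusted p = 0.0378), against 2 that fell and 3 that rose without it. Slc16a3 changed by 1.14 in the case group and 0.45 in the treatment group. The heat shock protein Hspb6 (-0.49, adjusted p = 0.0372), the iron regulator Hjv (-0.39, adjusted p = 0.0188) and the skeletal myosin binding protein Mybpc2 (-0.81, adjusted p = 0.00711) fell, each alone of its list of 17, 14 and 4, while 2 heat shock genes fell and 3 iron genes fell and 3 rose without case d. The fibroblast marker Pi16 rose (log2 fold change 0.79 ± 0.20 (SE), adjusted p = 0.0418) with Dcn, 2 of 11. None of 19 genes of cholesterol synthesis, 18 of muscle atrophy or 8 of the endocannabinoid system passed with edgeR. Of these 4, 8 and 1 had an unadjusted p under 0.05, DESeq2 called 2, 2 and 0, and edgeR without case d called 5 (3 higher, 2 lower), 12 (all higher) and 0. Cnr2, which encodes the target of JWH133, was at 0.168 to 0.454 FPKM in case hearts, 0.228 to 0.373 FPKM in treatment hearts and 0.174 to 0.373 FPKM in control hearts (0.22, adjusted p = 0.751). Cpt2, Slc16a3, Hspb6, Hjv and Pi16 lost their calls with any 1 control left out. Cpt2 did so without case a or c or treatment a, b or c as well. Slc16a3 did so without case a or c or treatment a, c or d as well. Hspb6 did so without case a or treatment a, c or d as well. Pi16 did so without case b or c or treatment b, c or d as well (adjusted p = 0.0512 to 0.227 over these fits). Pgam2 lost its call with control a or c left out (adjusted p = 0.102 to 0.134). Mybpc2 lost its call with control b or c left out (adjusted p = 0.0522 to 0.0555).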

How the data were processed

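RNA of 11 mouse hearts (4 case, 4 treatment and 3 control) was sequenced as paired-end libraries. The deposited table holds counts per gene for each library, with gene lengths. Tools listed, with no roles, in the processing notes of the submitters are HISAT2, TopHat2 and cutadapt, beside the build mm10, and the sources used here give no counting program, version or annotation. The counts were deposited by the authors as whole numbers. FPKM was computed from the deposited counts, gene length and library total, and 11 columns of FPKM in the table were not used. The 1 line that names no gene was dropped.

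Library letters come from the column names and do not match the replicate numbers of the labels. Of 21898 genes, 14050 passed filterByExpr by group in edgeR 4.0.16 (R 4.3.3). TMM normalization and a quasi-likelihood model with a mean per group over all 11 libraries gave the contrast of the stressed mean, with equal weight of case and treatment, against control, and P values were adjusted by Benjamini-Hochberg over the 14050 genes. A gene was called at an adjusted p under 0.05. SE is the log2 fold change divided by the root of F. FPKM served as levels, and log2 CPM (prior count 2) for overlap between libraries and principal components. The model was tested on simulated counts. Alternatives were DESeq2 1.42.0, its size factors, other filters, limma 3.58.1 on log2(FPKM + 1) and log2(FPKM + 0.1), robust estimation, 2 groups in place of 3, and leaving out each library. Python 3.11.15 with numpy 2.4.6, pandas 2.3.3, scipy 1.17.1 and matplotlib 3.10.9 was used.

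The members and the 52 gene lists were chosen with earlier results of these data known. Named genes were the 12 largest shared effects in each direction (the smaller of the case and treatment changes, called, not overlapping, at least 20 counts), up to 4 called members a list, members of high level in lists without calls, and the 13 genes of the study, and others were chosen after their values were seen. A few genes that this rule names are not reported here. A planned permutation test of marker sums was not run, and lists are given by counts and medians. Coordinates in the table were not used, because few match the annotation of GRCm38 examined. Promoters are from RefSeq GRCm38.p6. Counting intervals and floors (3 reads over the group) cover counting error only.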

Additional observations from a re-analysis of the deposited data

Results flagged for a closer look

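In 17 of 236 groups of 4 libraries (7.2%, from 118 named genes in the case and treatment groups) the highest or lowest library lay far from the other 3 by Dixon's criterion, where chance gives about 1 in 20. Of these, 13 were in the case group, 7 of them in library d, 3 in library a and 3 in library c. Case library d was the highest for Clspn (0.203 FPKM), Foxm1 (0.313), Nrp2 (8.95), Tfrc (25.7), Exo1 (0.109) and Kit (1.42), and the lowest for Serpina3n (77.6). Case library a was the highest for Chil3 (3.05 FPKM), Atf3 (21.7) and Hp (8.53). Case library c stood apart for Cyp1a1 (12.6 FPKM, highest), Pimreg (0.0133, lowest) and Hey2 (2.81, highest). In the treatment group, Mmp8 in library a (0.933 FPKM), Fos in library d (2.13, highest) and Ppp1r15a in library b (4.16, lowest) stood apart, and H3c1 in library c was the lowest (0.614).

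The case and treatment effects differed in 35 of the 118 genes at an adjusted p under 0.05 (treatment against case, edgeR), against 10.9% of all genes tested. The 118 include ER stress genes that the study chose for such a difference on these samples, and genes picked after their values were seen. The excess over all genes therefore follows in part from the choice and is no independent evidence. Among genes that rose in the stressed mean the log2 difference was -2.86 for Serpina3n, -2.28 for Lox, -2.19 for Cyp1b1, -1.71 for Junb, -1.33 for C6, -1.32 for Lcn2, -1.24 for Socs3, -1.14 for Gpx3, -0.85 for Fcgr2b, -0.84 for Slc3a2, -0.79 for C3, -0.75 for Osmr, -0.69 for Slc16a3, -0.56 for Gstm1, -0.51 for Dcn and -0.40 for Vwf. It was positive for 2 genes of platelets or clotting that rose, at 2.51 for F5 and 2.04 for Itga2b. Among genes that fell it was 1.80 for Lrat, 1.67 for Casq1, 1.53 for Apln, 1.01 for Hcn4, 0.89 for Mybpc2, 0.56 for Hjv and 0.50 for Cd93, and -1.99 for Ciart. Genes that did not pass in the stressed mean had -3.47 for Fos, -2.71 for Cdkn1a, -2.47 for Fkbp5, -2.36 for Atf3, -2.27 for Herpud1, -2.15 for Gabarapl1, -1.86 for Ppp1r15a, -1.70 for Nox4 and -1.21 for Tiparp.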

How the results depend on the processing

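The 629 calls (212 higher, 417 lower, 33.7% higher) became 1294 with DESeq2 (607 higher, 687 lower, 46.9% higher; all 629 included) and 219 with the 8 stressed libraries as 1 group (46 and 173, 21% higher), and stood between 555 and 640 with the other 6 settings, with 43.9% higher by limma on log2(FPKM + 0.1). Called genes that differed between treatment and case were 533 with DESeq2. The study's thresholds gave 534 genes, against 730 with no filter on low counts, 311 at a mean CPM of at least 1, 95 with limma on log2(FPKM + 1) and 352 on log2(FPKM + 0.1). Leaving out 1 library gave 195 to 2222 calls, 46 to 1024 higher and 148 to 1198 lower, 483 to 660 genes at the study's thresholds, 49 to 1483 that differed between treatment and case, and 1195 to 1813 on one side of control; the extremes of calls are control library a and case library d (46.1% higher). No call changed direction. Of 98 called genes given with values, 40 kept the call in all 11 fits without a library and 33 in all 8 other settings. The cause of these shifts was not tested, and the depth limits genes with few reads. No paired analysis was possible because the letters of the libraries could not be matched to replicate numbers in the labels.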

Other observations

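Other genes were picked after their values were seen and are given as values, with nothing said of the groups they belong to. Brca1, a scaffold of DNA repair by recombination, was at 0.0625, 0.0749, 0.0315 and 0.151 FPKM in case hearts, 0.159, 0.0877, 0.104 and 0.264 FPKM in treatment hearts and 0.433, 0.522 and 0.453 FPKM in control hearts. No stressed library reached control (log2 fold change -2.09 ± 0.36 (SE), adjusted p = 0.00741). Fanci, which marks crosslinks for repair (log2 fold change -1.91 ± 0.28 (SE), adjusted p = 0.00324), the nuclease Exo1 (log2 fold change -2.17 ± 0.40 (SE), adjusted p = 0.01) and Rad54l, a motor on recombining strands (log2 fold change -1.96 ± 0.50 (SE), adjusted p = 0.0469), fell as well. Kit, the receptor of stem cell factor, was at 0.313 to 1.42 FPKM in case hearts, 0.522 to 1.17 FPKM in treatment hearts and 1.76 to 2.21 FPKM in control hearts (log2 fold change -1.51 ± 0.36 (SE), adjusted p = 0.0374). Brca1 lost its call with control b left out (adjusted p = 0.0527). Exo1 lost its call with control c left out (adjusted p = 0.0798). Rad54l and Kit lost their calls with any 1 control left out. Rad54l did so without case a or c or treatment a, b, c or d as well. Kit did so without case a or b or treatment a, c or d as well (adjusted p = 0.0518 to 0.196 over these fits).

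F5, a clotting factor stored in platelets, was at 0.235, 0.1095, 0.109 and 0.261 FPKM in case hearts, 0.422, 0.545, 0.989 and 2.16 FPKM in treatment hearts and 0.05096, 0.0954 and 0.0755 FPKM in control hearts (log2 fold change 2.53 ± 0.58 (SE), adjusted p = 0.0292). Itgb3, the partner of Itga2b, was at 1.498 to 3.57 FPKM in case hearts, 2.72 to 8.75 FPKM in treatment hearts and 0.594 to 1.06 FPKM in control hearts (log2 fold change 2.08 ± 0.42 (SE), adjusted p = 0.0161). S100a9, the partner of S100a8, had 95 reads in the stressed and 0 in the control libraries, which is at least 11.9-fold higher with 3 reads over the control group as the floor, and had too few reads for the test. The inhibitory Fc receptor Fcgr2b (4.85 to 8.63 FPKM in case hearts, 3.64 to 4.25 FPKM in treatment hearts and 2.78 to 2.86 FPKM in control hearts, log2 fold change 0.90 ± 0.14 (SE), adjusted p = 0.00397) and the activating receptor Fcgr3 (log2 fold change 0.76 ± 0.19 (SE), adjusted p = 0.0455) rose. F5, Itgb3 and Fcgr3 lost their calls with any 1 control left out. F5 did so without treatment c as well. Fcgr3 did so without case c or treatment a, b, c or d as well (adjusted p = 0.051 to 0.205 over these fits).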
